A study of Mus musculus with 3 samples.

Results

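The 9 genes that encode the mouse Notch receptors and their ligands were followed across the cell types of the vomeronasal organ (VNO), the chemosensory organ of the nasal septum. They were chosen by name from the 32285 genes of the count tables and comprise 4 receptor genes (Notch1, Notch2, Notch3 and Notch4) and 5 ligand genes (Dll1, Dll3, Dll4, Jag1 and Jag2), and all 9 had unique molecular identifiers (UMIs) in every library. Male VNOs on a mixed C57 BL/6J and 129P2/OlaHsd background were profiled as 3 libraries of single-cell RNA-seq. The P10 control was taken at postnatal day 10 and is OMPCre Heterozygous. The P10 mutant, of the same age, is OMPCreR26AP2e Double Heterozygous, and the 3-month mutant is an adult of that second genotype. All libraries thus share the OMPCre allele, which drives recombination in neurons that express Omp, and the mutants add a Rosa26 allele for the transcription factor AP-2ε. Each group has 1 library, so no test, p-value or standard error was computed, and genotype, age and library cannot be told apart.

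Notch receptors are membrane proteins that are cut after a ligand on a neighbouring cell binds them, and the freed intracellular part joins RBPJ at target genes of the Hes and Hey families. The Delta-like genes Dll1 and Dll4 and the Jagged genes Jag1 and Jag2 encode activating ligands, while Dll3 encodes a divergent member that acts mainly within the cell that makes it. In blood vessels Dll4, Notch1 and Notch4 act in the endothelium and Notch3 in the mural cells around it. In neural epithelia the pathway sets which precursors become neurons and which remain progenitors or become supporting cells, and in the VNO it bears on the choice between apical and basal vomeronasal sensory neurons (VSNs).

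Where 3 values stand together they belong to the P10 control, the P10 mutant and the 3-month mutant, in that order. Levels are given as CPM, the UMIs of a gene pooled over the cells of a class and library per 1000000 UMIs of those cells. Intervals in square brackets are exact 95% intervals that cover counting error only. Barcodes with 200 to 9000 genes and at most 10% mitochondrial UMIs were kept, which left 4795, 3956 and 6960 cells. Their median depths were 10236, 10766.5 and 5010.5 UMIs, and 4 to 9 barcodes were shared between any pair of libraries. Neuronal precursors numbered 172, 74 and 26, against 41, 10 and 21 at a limit of 5%, so the wider limit carries most precursors of the P10 libraries. Other classes with a main part below were sustentacular cells (428, 459 and 352), basal epithelial cells (557, 309 and 549), gland cells (207, 74 and 787), endothelial cells (148, 206 and 303), pericytes (40, 22 and 28), smooth muscle cells (152, 79 and 115) and immune cells (670, 754 and 2331). The limit of 5% would leave 69, 43 and 67 sustentacular cells, 5, 4 and 6 pericytes and 9, 1 and 30 smooth muscle cells. All 7 pericyte, 7 basal and 11 endothelial markers were at least 2 times higher in their own class than in other cells in every library, as were at least 5 of 6 precursor markers, but this held for only 3, 5 and 3 of the 6 sustentacular markers. A cluster is called by a class name from such markers only. In mature VSNs Tfap2e, which encodes AP-2ε, was at 57.0, 650 and 252 CPM. Precursors held 6, 2 and 0 UMIs of Omp.

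Among 19 classes with at least 20 cells in every library, each member had a leading class, the class with the highest median CPM over the libraries. Notch1, Notch4 and Dll4 led in the endothelium, Notch3 and Jag1 in pericytes, Dll1 and Jag2 in the basal epithelium, Dll3 in neuronal precursors and Notch2 in neutrophils. Leading classes held very unequal shares of a gene: 64.7% of all 810 Dll4 UMIs came from the endothelial cells, which were 4.18% of the cells, whereas 3.38% of all 5232 Notch2 UMIs came from the neutrophils, which were 4.94% of the cells. The basal epithelium, with 9.01% of the cells, held 62.1% of 1146 Dll1 UMIs and 47.2% of 3727 Jag2 UMIs.

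**Figure D1:**
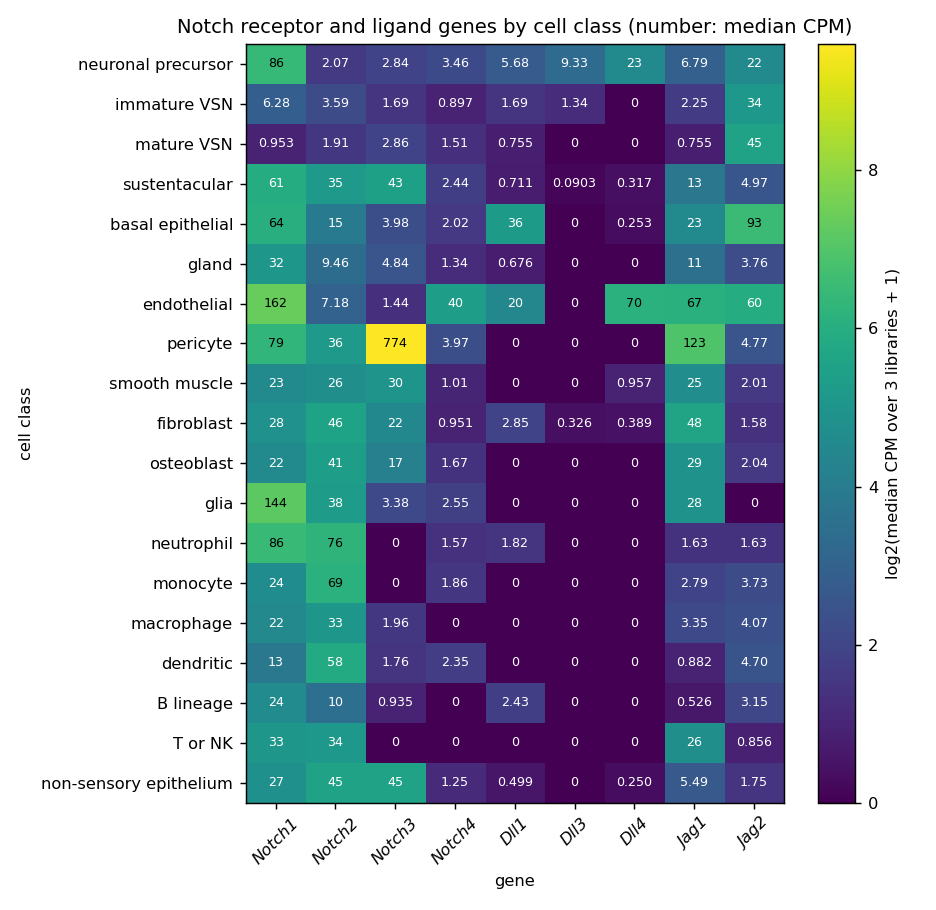
Heat map of the 9 genes (columns) in 19 cell classes (rows). Each number is the median CPM over the 3 libraries and the colour is log2(median CPM + 1). Notch3 in pericytes (774) stands out, Dll3 and Dll4 are at or near 0 outside a few classes, and Notch1 and Notch2 are spread over many classes.

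A member was called higher in a class when its CPM was at least 2 times that of all other kept cells in each of the 3 libraries. Of 152 pairs of member and class, 14 passed, beside 6.18% of the pairs over all genes tested. Dll3 had fewer than 30 UMIs in 2 libraries and was not among the 8 members tested. The endothelium had 6 of the 8 (Notch1, Notch4, Dll1, Dll4, Jag1 and Jag2), where 6.89% of all genes passed. The basal epithelium had 2 (Dll1 and Jag2, background 2.78%) and pericytes had 2 (Notch3 and Jag1, background 4.74%). Neuronal precursors had 1 (Dll4, background 10.2%), glia 1 (Notch1, background 7.16%), fibroblasts 1 (Jag1, background 8.26%) and monocytes 1 (Notch2, background 6.44%). No member passed in sustentacular cells (background 6.34%), gland cells (1.34%), smooth muscle cells (6.54%), neutrophils (5.94%), immature VSNs (12.9%), mature VSNs (15.2%) or the pooled immune cells (8.17%). At a fold of 3 in place of 2, 7 of the 14 pairs remained.

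Notch1 was the receptor gene seen in the largest number of cells, 4175 of the kept cells. In the endothelium it was at 162 CPM [144, 183], 144 [130, 158] and 162 [147, 177]. Glia, the supporting cells of nerves, were next with 133 [99.1, 174], 184 [155, 217] and 144 [124, 168]. The 2 classes overlapped over the libraries, so their order is not settled. Against all other cells the ratios were 3.82 [3.36, 4.33], 2.60 [2.34, 2.88] and 4.82 [4.33, 5.34] in the endothelium and 2.94 [2.19, 3.86], 3.16 [2.65, 3.74] and 3.85 [3.27, 4.50] in glia. Behind them neutrophils (72.3, 86.4 and 134 CPM), precursors (85.7, 112 and 83.8), pericytes (78.6, 147 and 54.8) and basal cells (63.8, 81.8 and 48.0) formed a middle group whose ranges overlapped as well. Mature VSNs were far below them, with 16, 1 and 1 UMIs, or 9.70, 0.755 and 0.953 CPM. Notch1 was thus found in most non-neuronal classes and in precursors, and hardly at all in mature neurons.

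Notch2 was at 75.5 CPM [55.7, 100], 52.1 [35.7, 73.6] and 88.5 [71.7, 108] in neutrophils and at 122 [101, 146], 68.9 [54.1, 86.5] and 60.5 [49.9, 72.8] in monocytes. Monocytes were the higher class in the P10 libraries and neutrophils in the 3-month library, so the lead is shared. Only monocytes were past 2-fold over other cells in every library, at 3.59, 2.19 and 2.83 times, since neutrophils reached 1.63 times in the P10 mutant. All stages of the neuronal lineage were at the bottom of the order, with precursors at 2.07, 1.89 and 6.79 CPM from 6, 2 and 3 UMIs, and the endothelium was just above them at 15.1, 7.18 and 6.84. The neutrophils were shallow, with medians of 2662, 2662 and 2398.5 UMIs, against 10997, 12308 and 9450 in monocytes. After each cell was thinned to 2000 UMIs, 14.6%, 12.2% and 16.5% of neutrophils had a Notch2 UMI, against 0.280%, 0.462% and 1.03% of precursors, whose median depths were 14485, 14660.5 and 16081.5.

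Notch3 had the highest ratio of a leading class to other cells among the receptor genes, although pericytes held only 17.6% of its UMIs, against 46.0% of the Notch4 UMIs in the endothelium. Pericytes, the contractile cells on capillaries, were at 612 CPM [540, 692], 774 [670, 891] and 951 [821, 1096]. These levels were 34.8 [30.2, 39.9], 32.1 [27.5, 37.4] and 87.5 [74.0, 103] times those of other cells, and every library lay above every value of any other class. A UMI was seen in 36 of 40, 22 of 22 and 27 of 28 pericytes at median depths of 10068, 8386 and 6992 UMIs, and in none of the 351 monocytes at the depths given above. Non-sensory epithelium (13.9 to 63.6 CPM) and sustentacular cells (42.6, 43.6 and 37.9) came next and overlapped. Smooth muscle, the other mural class, held only 30.2 [22.6, 39.5], 35.2 [24.5, 49.0] and 9.57 [4.59, 17.6] CPM of Notch3. The pericytes were marked by Rgs5 at 8989, 10850 and 13717 CPM and had at most 1 UMI of Pecam1 and none of Cdh5, both endothelial genes. Smooth muscle cells had Myh11 at 3188, 3460 and 3173 CPM and Rgs5 at 75.2, 106 and 40.2 CPM.

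Notch4 was the sparsest receptor gene, with 559 UMIs, of which 46.0% were in endothelial cells. Its endothelial level was 42.9 CPM [33.5, 54.1], 39.6 [32.8, 47.6] and 25.2 [19.6, 31.8], which was 19.8, 17.7 and 24.1 times that of other cells. The next class, pericytes, reached 7.15 CPM at most, from 3 UMIs, so the endothelium lay above all other classes in every library and the order below it could not be resolved.

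**Figure D2:**
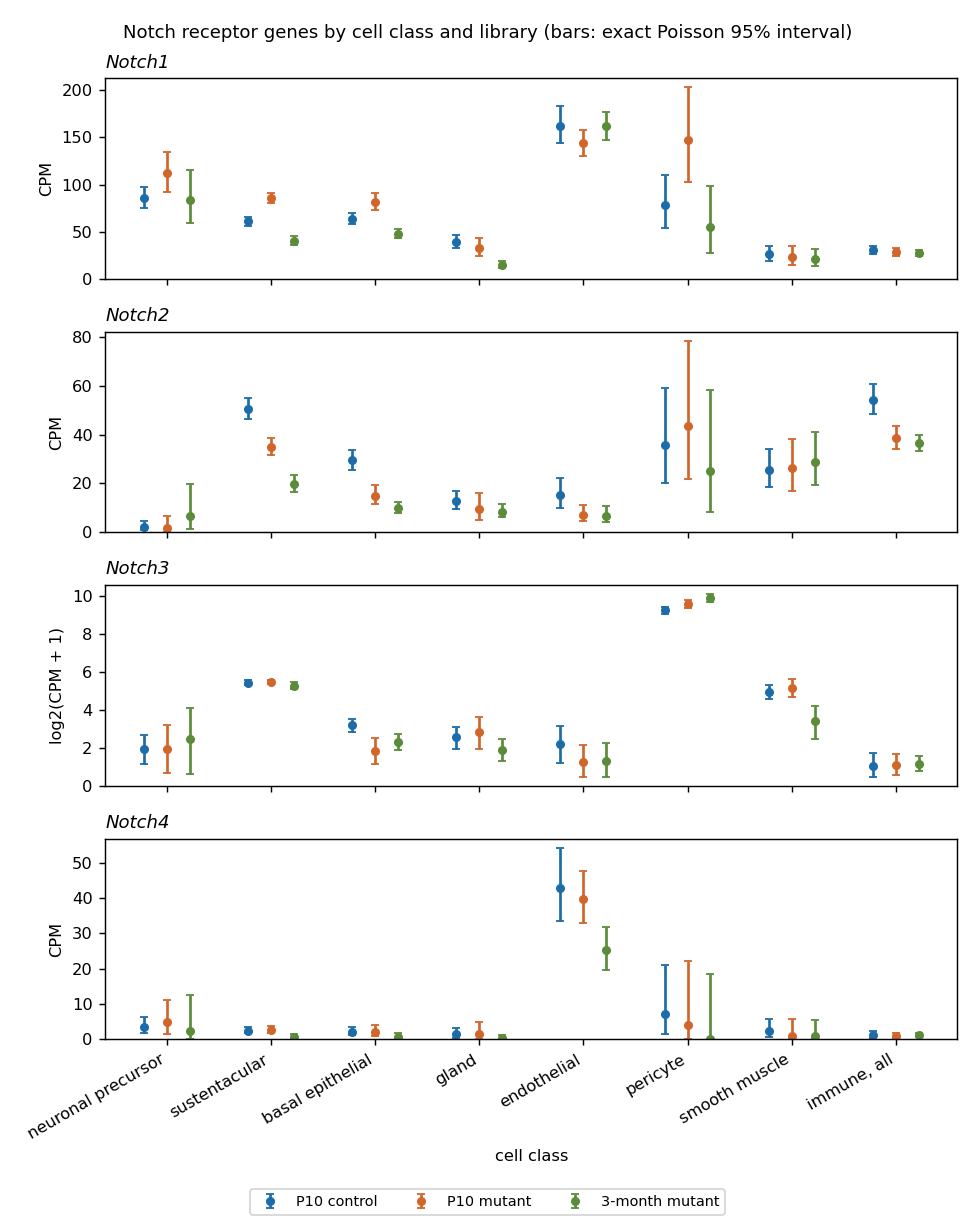
The 4 receptor genes (panels) in 8 cell classes (horizontal axis) for each library (colours). Points are CPM, on a log2(CPM + 1) scale for Notch3 only, and bars are exact Poisson 95% intervals. Endothelial points lead for Notch4 (25.2 to 42.9) and, but for the pericytes of the P10 mutant (147 against 144), for Notch1, and pericyte points lead for Notch3 (612 to 951).

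Among the ligand genes, Dll4 was nearly confined to 2 of the 19 classes, the endothelium and the neuronal precursors. Endothelial cells were at 124 CPM [107, 142], 69.7 [60.5, 80] and 41.4 [34.2, 49.7], which was 60.0 [47.8, 75.6], 38.3 [29.8, 49.4] and 33.2 [24.4, 45.4] times the level of other cells. Precursors were at 20.7 [15.8, 26.7], 22.7 [14.5, 33.8] and 22.6 [10.9, 41.6], from 60, 24 and 10 UMIs, or 4.56, 4.40 and 7.44 times the level of other cells. Every endothelial value lay above every precursor value, and every precursor value above those of the remaining 17 classes, none of which exceeded 3.97 CPM. At the 5% mitochondrial limit the precursors, then 41, 10 and 21 cells, kept 14, 0 and 10 Dll4 UMIs. Immune cells held 0, 0 and 7 Dll4 UMIs in all, and 3 counts would have been 0.543, 0.423 and 0.225 CPM. Endothelial RNA was scarce in the precursors: 62, 20 and 8 UMIs over all 11 endothelial markers, or 21.4, 18.9 and 18.1 CPM, with Pecam1 at 1.73, 0.946 and 2.26 CPM and Cdh5 at 0.691, 0.946 and 0. In endothelial cells Pecam1 alone was at 605, 542 and 584 CPM. In lymphatic endothelial cells, of which there were only 10, 7 and 38, Dll4 was at 84.9, 74.0 and 109 CPM.

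Dll3, with 100 UMIs in all, was the rarest member. Precursors held 27, 15 and 4 of its UMIs, or 9.33 CPM [6.15, 13.6], 14.2 [7.94, 23.4] and 9.06 [2.47, 23.2], and these levels were 23.1 [12.8, 41.8], 62.6 [27.3, 146] and 28.6 [7.04, 86.8] times those of other cells. Immature VSNs had 3, 1 and 2 UMIs and mature VSNs, basal cells, gland cells, endothelial cells and both mural classes had none in any library. The precursor CPM stood above those of the other classes in all libraries, but the lead was not resolved at 3 months. There the interval overlapped that of immature VSNs, at 4.50 CPM [0.545, 16.2], and 3 counts in pericytes would be 14.9 CPM. With counts this low no order among the rest could be read. At the 5% mitochondrial limit the precursors kept 5, 0 and 4 Dll3 UMIs.

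Dll1 and Jag2 shared the basal epithelium, the Krt5+ and Trp63+ layer, as leading class. Dll1 was at 33.4 CPM [29.3, 37.9], 36.4 [30.7, 42.9] and 44.7 [40, 49.8] there, and Jag2 at 93.1 [86.2, 100], 107 [97.3, 118] and 90.9 [84.1, 98.1]. For both genes all basal values lay above those of the second class, the endothelium, at 18.1, 20.5 and 23.0 CPM for Dll1 and 59.8, 51.3 and 67.7 for Jag2. The genes parted in the neurons. In mature VSNs, whose range just met that of the endothelium, Jag2 was at 43.6 [34.2, 55.0], 51.4 [39.9, 65.1] and 44.8 [32.9, 59.5] CPM, and 46 of 68, 39 of 51 and 28 of 50 of these cells had a UMI at median depths of 24577, 26371 and 21367.5. Dll1 had 2, 1 and 0 UMIs in the same cells. Of the P10 T or NK cells, at median depths of 6508 and 6385 UMIs, 0 and 1 had a Jag2 UMI, and after thinning to 2000 UMIs the shares were 8.42%, 9.96% and 9.06% in mature VSNs and 0, 0.311% and 0.0590% in T or NK cells. In basal cells Dll1 and Jag2 were seen together in 101 of 557, 59 of 309 and 110 of 549 cells, where 71.3, 49.8 and 92.8 would be expected from the 2 shares alone, a comparison that does not account for differences in depth between cells.

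Jag1 had the broadest distribution of the ligand genes. Pericytes led with 133 CPM [101, 173], 123 [83.7, 175] and 89.7 [53.1, 142], or 7.78, 6.67 and 5.73 times the level of other cells, and lay above the endothelium in all libraries. The endothelium (70, 67.0 and 35.3 CPM) and fibroblasts (47.5, 47.9 and 33.2) followed and overlapped. Sustentacular, basal and gland cells were between 6.42 and 22.9 CPM. Mature VSNs held 0, 1 and 6 Jag1 UMIs.

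**Figure D3:**
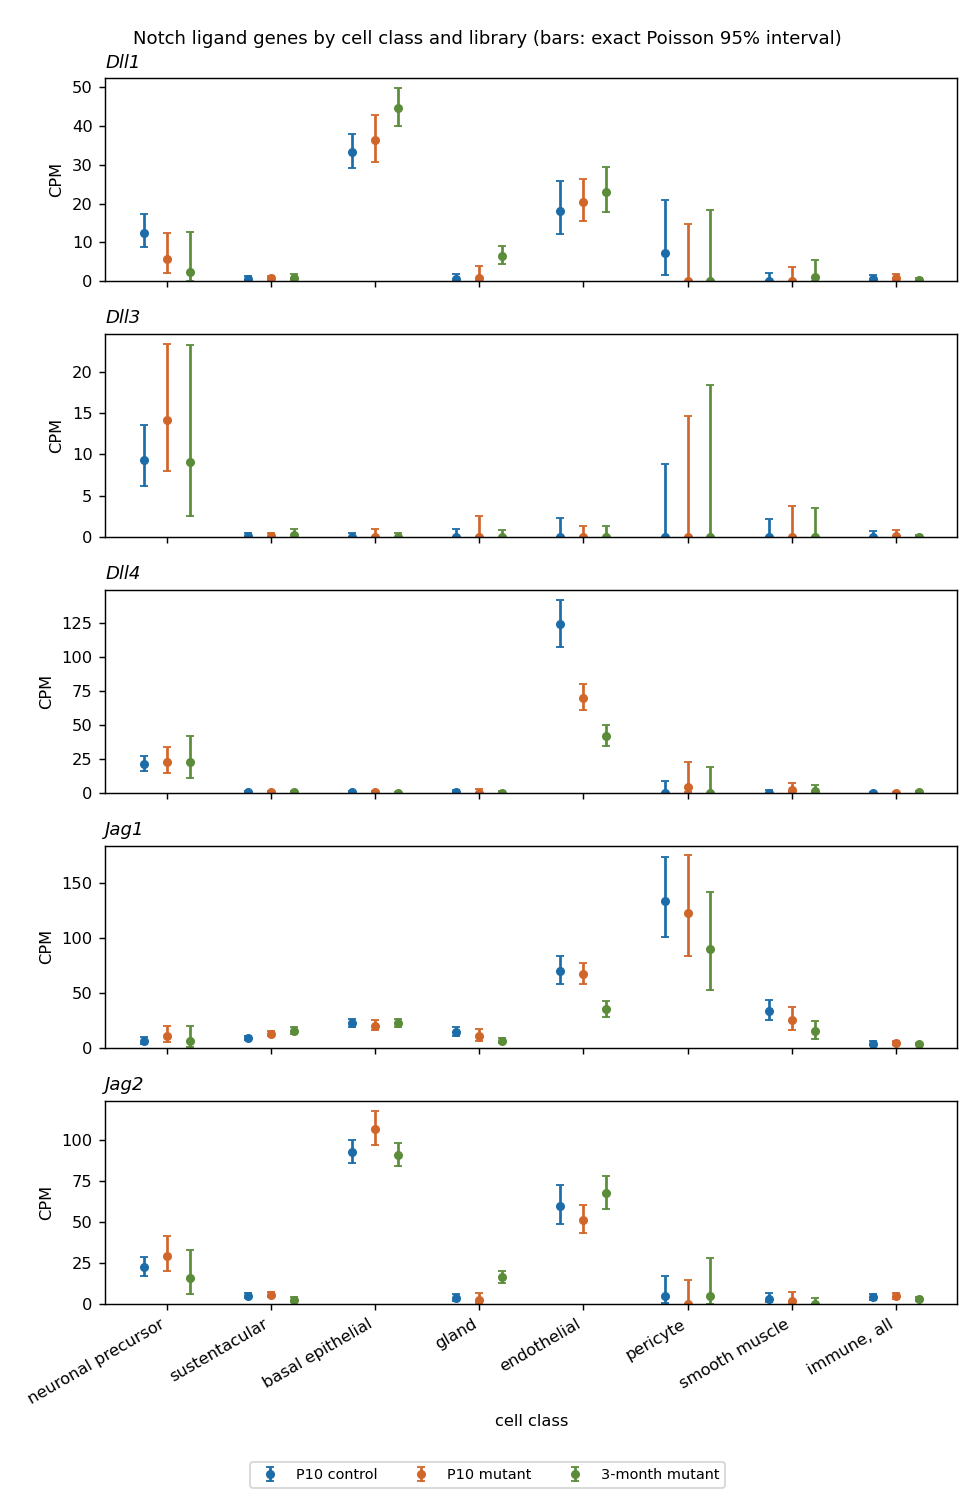
The 5 ligand genes (panels) in 8 cell classes (horizontal axis) for each library (colours). Points are CPM and bars are exact Poisson 95% intervals. Endothelial Dll4 lies at 124, 69.7 and 41.4 and precursor Dll4 between 20.7 and 22.7, while Dll1 and Jag2 lead in basal cells and Jag1 in pericytes.

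Receptor and ligand genes were not paired alike in all classes. In pericytes the receptor gene Notch3 and the ligand gene Jag1 were seen in the same cell in 29 of 40, 16 of 22 and 13 of 28 cells, close to the 27.0, 16.0 and 12.5 expected when nearly every cell has Notch3. A receptor gene was seen in 86.2%, 88.2% and 66.2% of sustentacular cells and a ligand gene in 25.0%, 27.2% and 25.0%. In basal cells these shares were 58.0%, 62.1% and 48.1% for receptors and 66.6%, 79.3% and 76.3% for ligands. Neutrophils had a receptor gene in 38.9%, 35.5% and 39.3% of cells and a ligand gene in 0.637%, 1.78% and 2.67%. Their ligand share was the lowest of the classes at P10, but T or NK cells (1.08%) and monocytes (2.65%) were lower at 3 months. Median depths were 19897.5, 17830 and 13471.5 UMIs in sustentacular and 12715, 12277 and 12541 in basal cells. Neutrophils had only 2662, 2662 and 2398.5, and these shares were not thinned. Receptor CPM summed to 149, 139 and 228 in neutrophils and 156, 167 and 98.3 in sustentacular cells. In the endothelium Notch1 and Dll4 occurred together in 41 of 148, 64 of 206 and 48 of 303 cells, against 29.3, 48.4 and 39.2 expected from each gene's own share. These expected values do not account for differences in depth between cells.

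The target genes followed the receptors unevenly. Hes5, a transcriptional repressor of neural progenitors, was at 109, 70 and 92.9 CPM in precursors, 81.9 [63.8, 106], 86.1 [58.4, 129] and 95.9 [62.4, 146] times the level of other cells. Hey1, a related repressor, led in sustentacular cells at 280, 290 and 216 CPM, above the basal cells in all libraries. Heyl and Nrarp, the latter a feedback inhibitor, led in pericytes at 95.3, 143 and 129 CPM and at 198, 199 and 144 CPM, and Hey2 led in glia at 130, 174 and 171 CPM. Hes1 was abundant in many classes, with non-sensory epithelium (363 to 719 CPM) and gland cells (321 to 703) on top, and Dtx1 was highest in immature and mature VSNs (58.5 to 110 and 84.8 to 110 CPM). Ccnd1, a cyclin gene that many pathways drive, led in precursors at 332, 430 and 607 CPM, although its range met that of dendritic cells.

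By the 2-fold rule, 8 of 38 other pathway genes passed in precursors, beside 10.2% of all genes. They were Hes5, Ccnd1, the coactivator gene Maml3 (3.07, 3.29 and 3.66 times), the receptor glycosyltransferase genes Lfng (12.0, 7.30 and 2.41 times) and Mfng (33.9, 20.5 and 24.4 times), the ubiquitin ligase genes Neurl1a and Neurl1b, and Numbl. The endothelium had 5 of 38 (background 6.89%), namely Nrarp, Mfng (7.73, 10.7 and 9.23 times), Neurl1b, Numb and Adam10, which encodes the protease that makes the first cut of a bound receptor (3.27, 3.25 and 4.71 times). Pericytes had 5 (background 4.74%), which were Heyl (26.1, 36.4 and 47.1 times), Nrarp (13.1, 10.9 and 21.6 times), Hey2, Neurl1b and Aph1b, a subunit gene of γ-secretase whose 9, 5 and 3 UMIs leave it barely measured. The basal epithelium had 2 (background 2.78%), the coactivator gene Maml2 and Dlk2 (65.1, 113 and 23.4 times), which encodes a Delta-like protein without the canonical receptor-binding domain. Sustentacular cells had Hey1 with the γ-secretase subunit genes Psen2 and Ncstn (background 6.34%), and neutrophils had Lfng alone (background 5.94%). Of the Fringe genes, Mfng thus passed in precursors and the endothelium, Lfng in precursors, T or NK cells, monocytes and neutrophils, and Rfng in no class.

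The promoters of 2 genes that lead in precursors and of Dll4 are shown for their short motifs. Sequences are from RefSeq on GRCm38.p6, from 250 bases before to 50 after the start, 5′ to 3′ on the gene's strand. Capitals mark TGGGAA or its reverse complement TTCCCA, the core bound by RBPJ, and CAGCTG, an E-box of the kind that proneural factors bind. The Hes5 promoter is chr4:154960673-154960972 (plus strand), that of Dll3 chr7:28301736-28302035 (minus strand) and that of Dll4 chr2:119325534-119325833 (plus strand).

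Hes5: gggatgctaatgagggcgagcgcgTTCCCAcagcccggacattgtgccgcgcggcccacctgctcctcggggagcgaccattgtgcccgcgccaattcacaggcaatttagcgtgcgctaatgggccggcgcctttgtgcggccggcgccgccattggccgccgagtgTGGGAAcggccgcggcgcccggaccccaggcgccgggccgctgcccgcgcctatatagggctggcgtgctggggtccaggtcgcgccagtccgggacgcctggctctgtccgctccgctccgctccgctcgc
Dll3: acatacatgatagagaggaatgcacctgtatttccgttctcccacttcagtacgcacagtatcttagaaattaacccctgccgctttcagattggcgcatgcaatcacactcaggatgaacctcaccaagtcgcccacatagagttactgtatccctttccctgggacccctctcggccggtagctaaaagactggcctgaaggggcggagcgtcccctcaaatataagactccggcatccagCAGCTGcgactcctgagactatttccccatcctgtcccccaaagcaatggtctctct
Dll4: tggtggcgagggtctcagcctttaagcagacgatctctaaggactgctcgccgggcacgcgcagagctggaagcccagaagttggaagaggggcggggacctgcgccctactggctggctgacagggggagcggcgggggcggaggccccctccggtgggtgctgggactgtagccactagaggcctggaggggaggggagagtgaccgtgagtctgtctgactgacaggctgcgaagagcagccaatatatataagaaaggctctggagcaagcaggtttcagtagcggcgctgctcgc

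The Hes5 promoter holds 2 matches of TGGGAA on either strand and the Dll3 promoter 1 of CAGCTG, while the Dll4 window holds neither. Over all 32851 promoters of that length 25.6% hold TGGGAA and 16.3% hold CAGCTG. Of the members, Dll1 (in 1 of its 2 promoters), Dll3 and Jag1 hold CAGCTG, and no member holds TGGGAA. The motif AGGAAG, a core bound by ETS factors, is in 35.4% of promoters and occurs 4 times in that of Notch4 (chr17:34564045-34564344, plus strand). A match is a match of letters only.

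Along the neuronal lineage, from precursors through immature to mature VSNs, Notch1 was at 85.7, 112 and 83.8 CPM in precursors and at 6.28 [3.43, 10.5], 19.4 [12.3, 29.1] and 4.50 [0.545, 16.2] in immature VSNs. Dll4 had a like course, since immature VSNs held 4, 0 and 0 of its UMIs and mature VSNs 2, 0 and 0. Both genes were thus far lower in immature neurons than in precursors in every library. At 3 months these 2 classes, of 68 and 26 cells, were both unnamed when that library was clustered alone. Jag2 took the other course, at 22.5 [17.3, 28.6], 29.3 [19.9, 41.6] and 15.9 [6.37, 32.7] CPM in precursors, 33.6, 46.3 and 24.7 in immature and 43.6, 51.4 and 44.8 in mature VSNs. Its level was higher at each later class in all 3 libraries, although the intervals of neighbouring classes overlapped. Within the mature VSNs, the ratio of the Jag2 level in V2R-dominant (basal) over V1R-dominant (apical) cells was 1.05 [0.772, 1.44] over all libraries.

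Among the targets, Hes5 was at 109, 70 and 92.9 CPM in precursors, while immature VSNs held 3, 4 and 1 of its UMIs and mature VSNs 5, 0 and 0. Hey1 was at 76.4 [66.7, 87.2], 92.7 [75.3, 113] and 56.6 [36.6, 83.6] CPM in precursors and at 15.7, 13.5 and 11.2 in immature VSNs, and Nrarp was at 22.8, 28.4 and 40.8 against 3.59, 3.37 and 0. These targets were thus lower after the precursor class, as Notch1 was. Hes1 was at 102 [91.0, 115], 108 [89.0, 130] and 36.2 [20.7, 58.8] CPM in precursors, 15.2, 11.0 and 2.25 in immature and 66.7 [54.8, 80.4], 20.4 [13.4, 29.7] and 10.5 [5.23, 18.8] in mature VSNs. In the mature cells of the P10 control its level was 19.5 CPM where V2R UMIs dominated (31 cells) and 107 CPM where V1R UMIs did (33 cells), a ratio of 0.182 [0.0934, 0.325], and in the P10 mutant the ratio was 0.454 [0.132, 1.27], an interval that includes equal levels.

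The 3-month precursors were only 26 cells, of which 1 held 29.7% of the Notch1 UMIs. Notch1 and Dll4 occurred in the same cell in 21 of 172, 12 of 74 and 3 of 26 precursors. From the 2 shares 15, 7.19 and 1.92 would be expected, which does not account for differences in depth between cells. The level of gland markers summed over the list differed between the precursors of the libraries, at 2328, 146 and 1336 CPM, and its part in the values was not tested.

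**Figure D4:**
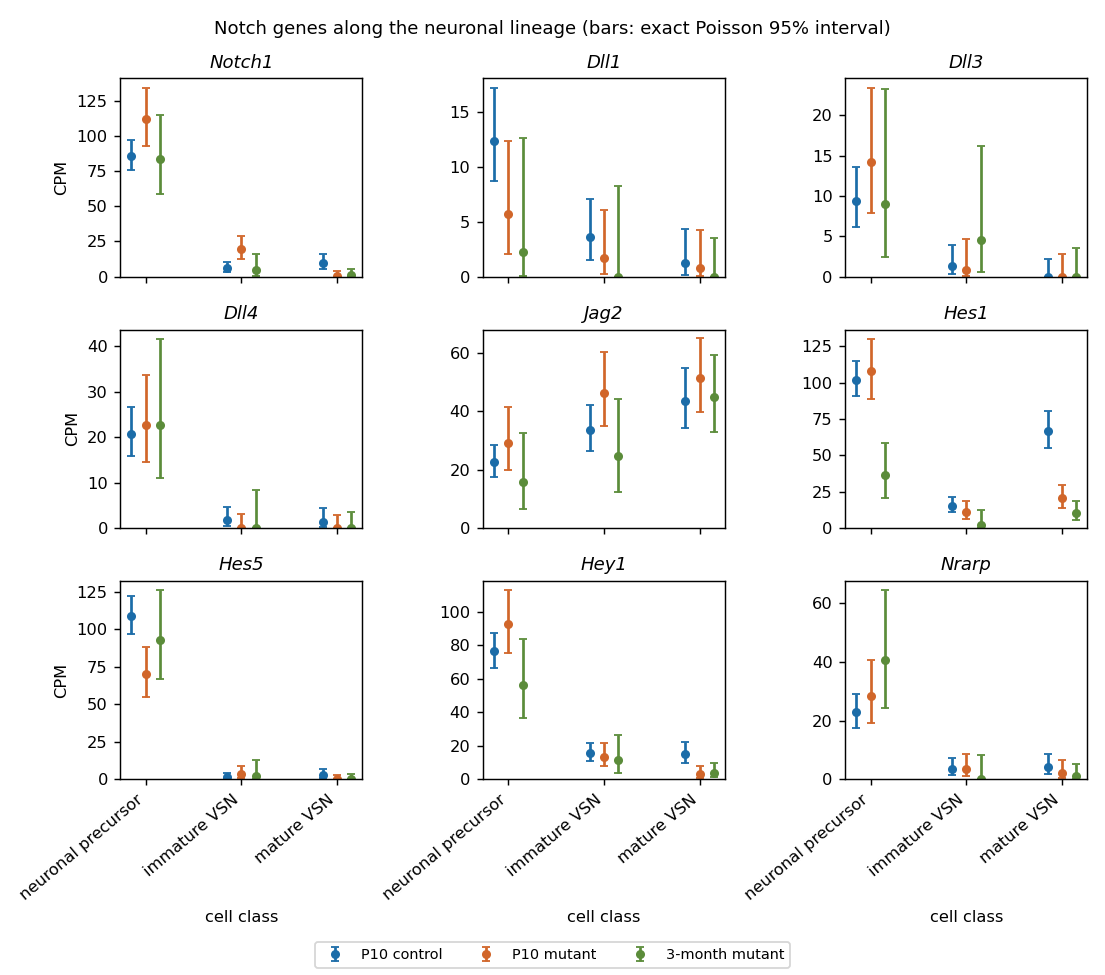
Notch members and targets (panels) in 3 classes of the neuronal lineage (horizontal axis) for each library (colours). Points are CPM and bars exact Poisson 95% intervals. Notch1, Dll4, Hes5, Hey1 and Nrarp are highest in the precursors, and Jag2 is higher in mature VSNs than in precursors in every library.

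Within the endothelium, here with the lymphatic endothelial class included, the members were not spread evenly over the sub-clusters. An arterial-like sub-cluster of 32 cells (5, 10 and 17 per library) was led by all 5 arterial markers, Gja5, Gja4, Sox17, Efnb2 and Bmx. It held Jag1 at 261 CPM [213, 318], Jag2 at 264 [215, 321], Notch4 at 120 [88.0, 160] and Notch1 at 246 [198, 300], pooled over libraries. These were 6.09 [4.82, 7.65], 5.71 [4.52, 7.14], 4.13 [2.93, 5.69] and 1.63 [1.30, 2.01] times the levels of the other endothelial cells, and the target gene Hey1 was 3.39 [2.1, 5.26] times higher there.

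Dll4 had another pattern. It was highest in a sub-cluster of 101 cells (40, 53 and 8 per library) at 185 CPM [163, 209], and in a small one of 23 cells, 22 of them of the P10 control, at 189 [114, 296], with the arterial-like cells at 131 [96.9, 172]. Nrarp was 2.49 [2.00, 3.10] times higher in the first of these than in the other endothelial cells. A venous-like sub-cluster of 71 cells, all of the 3-month mutant, was led by Nr2f2, Ackr1 and Vwf, 3 of the 5 venous markers. It was low for Dll4 (17.3 CPM), Jag2 (13) and Notch4 (8.65) and the highest for Dll1 at 38.9 [27.3, 53.9]. A sub-cluster of 66 cells (21, 44 and 1 per library) had 2 of the 5 venous markers, Ackr1 and Selp. Its Dll1 level of 28.8 CPM [21.1, 38.5] overlapped, so the lead for Dll1 is not settled. The lymphatic-like sub-cluster of 55 cells (10, 7 and 38 per library) is the lymphatic endothelial class given above. Pooled over libraries it had Dll4 at 99.9 CPM [72.6, 134] and Notch1 at 173 [136, 216], but 0 UMIs of Dll1. Notch1 was the most even of these genes, between 55.0 and 246 CPM over all sub-clusters. The make-up of the endothelial class differed between libraries: sub-clusters of 83 of 84, 106 of 106 and 71 of 71 cells belonged to the 3-month mutant.

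**Figure D5:**
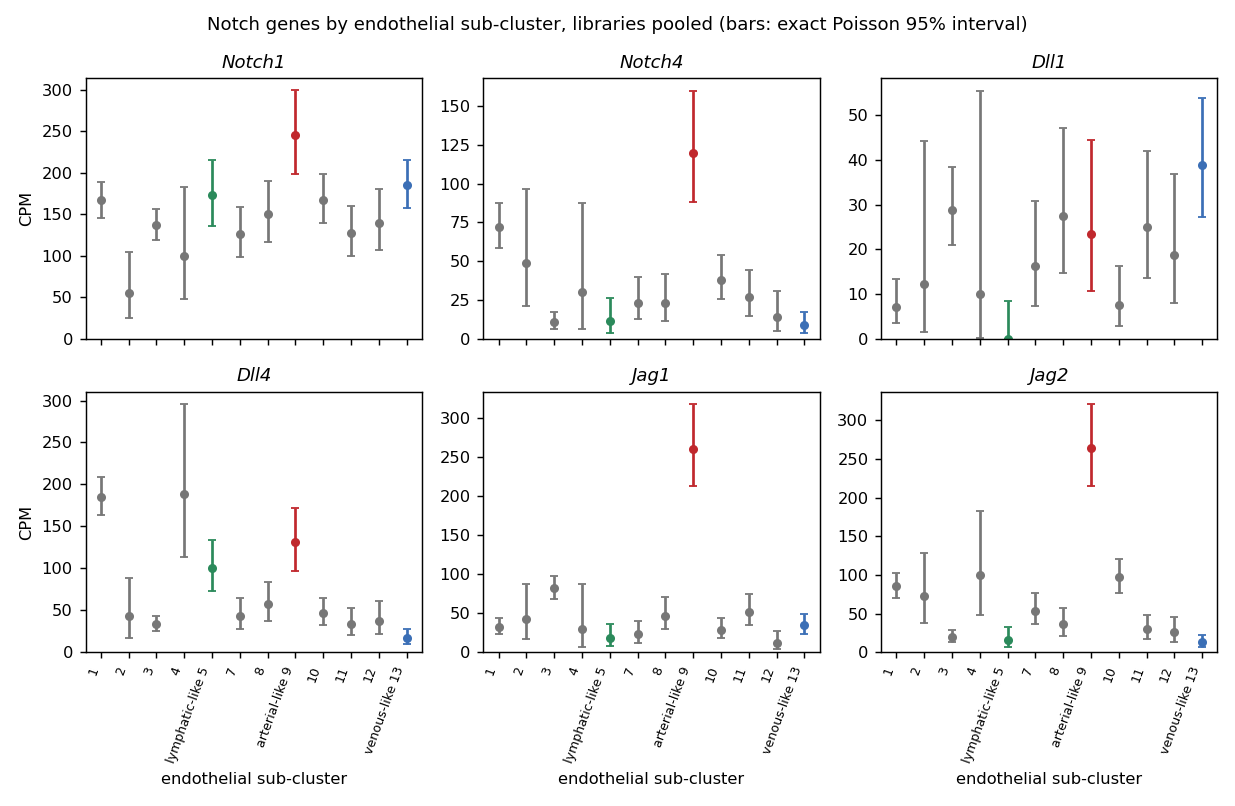
Levels of 6 members (panels) in 12 endothelial sub-clusters (horizontal axis), with all libraries pooled. Points are CPM, bars exact Poisson 95% intervals, and colours mark the arterial-like, venous-like and lymphatic-like sub-clusters. Jag1 (261), Jag2 (264) and Notch4 (120) peak in the arterial-like cells, whereas Dll4 peaks in sub-clusters 1 and 4 (185 and 189).

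Differences between the P10 libraries within a class were few. Of 70 pairs of member and class with enough UMIs, 2 were at least 2-fold higher in the P10 mutant than in the P10 control and 3 at least 2-fold lower, beside 3.25% higher and 3.30% lower over all genes and classes, so the share of members was close to the background. The higher values were Notch1 in immature VSNs (19.4 against 6.28 CPM from 23 and 14 UMIs, ratio 3.09 [1.52, 6.49]) and Notch3 in non-sensory epithelium (63.6 against 13.9 CPM, ratio 4.56 [2.86, 7.70]), a class in which 12.8% of all genes were higher and whose cells came from cluster 20 in the control (60 of 60) but mostly from cluster 32 in the P10 mutant (125 of 185). The lower values were Notch3 in basal cells (0.311 [0.142, 0.612]), Notch2 in the endothelium (0.476 [0.253, 0.885]) and Dll1 in precursors (0.456 [0.157, 1.09], from 6 and 36 UMIs). In precursors the ratios were 1.30 [1.04, 1.63] for Notch1 and 1.09 [0.652, 1.78] for Dll4. Endothelial Dll4 was 0.564 [0.462, 0.687] times the control level, short of the 2-fold limit.

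Between the 3-month and the P10 mutant, 18 of 69 pairs passed 2-fold, with 4 higher and 14 lower, beside 6.47% higher and 13.5% lower over all genes and classes. The lower side was larger for all genes as well, most of all in B lineage cells and gland cells, where the median log2 ratio of all genes was -1.55 and -0.66. The B lineage cells came from cluster 17 in the P10 mutant (85 of 86) and mostly from cluster 36 in the 3-month mutant (101 of 132). Age, Cell Ranger version and library cannot be told apart here. Sustentacular Notch1 was at 40.3 against 85.9 CPM (0.469 [0.407, 0.539]), where the control was at 60.9 and 10.6% of all genes were lower, and most of these cells came from a different cluster in the 3-month library than in the P10 libraries. Pericyte Notch1 was at 54.8 against 147 CPM (0.373 [0.172, 0.746]) and smooth muscle Notch3 at 9.57 against 35.2 (0.272 [0.120, 0.560]), while pericyte Notch3 had a ratio of 1.23 [1.00, 1.51]. In T or NK cells Jag1 was at 36.9, 26.2 and 1.28 CPM, from 15, 18 and 3 UMIs, and 498 of the 556 cells of the 3-month mutant came from a cluster other than the main one of the P10 libraries. Endothelial Dll4 and Jag1 were at 0.594 [0.468, 0.750] and 0.527 [0.409, 0.674] of the P10 mutant level, beside the uneven sub-clusters above.

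The higher values were Jag2 and Dll1 in gland cells, Dll1 in fibroblasts (3.10 [1.17, 10.3]) and Jag1 in macrophages (2.57 [1.08, 7.43]). Jag2 in gland cells was at 3.76, 2.70 and 16.4 CPM, a ratio of 6.06 [2.27, 22.8] between the mutants, and Dll1 at 0.538, 0.676 and 6.42 CPM, a ratio of 9.5 [1.58, 387] from 31 UMIs against 1. Both genes lead in basal cells, and basal markers moved with them: summed over the list of 7 they were at 142, 245 and 789 CPM in gland cells, none at 0, with Krt5 at 15.3, 11.5 and 133 and Trp63 at 2.96, 6.08 and 39.8. The part of basal RNA in these values was not tested. The 3-month gland cells had a median of 703 UMIs against 13498 and 18124 at P10. The class was not stable at 3 months: 308 of 787 cells kept the name at a clustering resolution of 2, against 63 of 74 in the P10 mutant. With each library clustered alone, 301 and 71 kept it.

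The genes most like each member over the 19 classes were named by the Pearson correlation of mean log2(CPM + 1), a description over points that share libraries and depth. For the receptors they were Dusp6 (0.809), Ndst1 and Slc44a2 for Notch1, Smim3 (0.911), Atp6v0e and Zyx for Notch2, Ndufa4l2 (0.891), Fam162a and Syn3 for Notch3, and Vwf (0.907), Pkn3 and Ccm2l for Notch4. For the ligands they were Ces2e (0.873), Il20rb and Odf3b for Dll1, Neurog1 (0.977), St18 and Neurod1 for Dll3, Deup1 (0.965), Dnah10 and Wscd1 for Dll4, Poglut3 (0.931), L3hypdh and Rab13 for Jag1, and Sgsm1 (0.782), Dmrta2 and Gm12059 for Jag2. Notch1 and Jag2 had the lowest best match (0.809 and 0.782) and Dll3 the highest. Neurog1 and Neurod1 are precursor markers and Vwf is an endothelial marker, so these genes had helped to name the classes. Dll3 had no UMIs in most classes, so any gene nearly confined to precursors would match it closely.

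On GRCm38 with GENCODE M21 the members lie on chromosomes 2 (Notch1, 26457903 to 26516663, minus strand; Dll4, 119325784 to 119335962, plus; Jag1, 137081456 to 137116644, minus), 3 (Notch2, 98013527 to 98150361, plus), 7 (Dll3, 28293553 to 28302238, minus), 12 (Jag2, 112907819 to 112929776, minus) and 17 (Notch3, 32120820 to 32166852, minus; Notch4, 34564268 to 34588503, plus; Dll1, 15367354 to 15376872, minus). Genes on the opposite strand overlap Notch1, Notch3, Notch4, Dll1 and Dll4, and genes on the same strand overlap Notch1 (Mir6996), Notch2 (Gm42819 and Gm42820) and Jag2 (Mir6941). Whether the counting used strand is not given in the sources used here, so reads of the opposite-strand pairs may not be fully separable, and those of the same-strand pairs could not be told apart by strand in any case.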

How the data were processed

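Whole VNOs of male mice were dissociated with papain and collagenase, frozen as cell suspensions and profiled with the 10x Genomics 3′ v3.1 kit. How many animals entered each library was not given in the sources used here. The genome build was mm10 per the labels. The deposited values are whole UMI counts per gene and barcode, not normalised, which the authors made with Cell Ranger, version 4.0.0 at P10 and 6.0.1 at 3 months per the file headers, although the submitters' notes name 4.0.0 throughout. Total UMIs were 83870584, 80760046 and 70074800 over 8202, 8864 and 10293 barcodes, and median mitochondrial shares were 8.66%, 11.0% and 5.64%.

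From these counts, barcodes with 200 to 9000 genes and at most 10% mitochondrial UMIs were kept in place of the study's 5%. Cells of all libraries were clustered together in scanpy 1.11.5 without integration (counts scaled to 10000 per cell, 2000 variable genes chosen across libraries, without the 9 Notch members, 39 other pathway genes, vomeronasal receptor genes and mitochondrial genes, 30 components, 20 neighbours, Leiden resolution 1). Clusters of at least 100 cells were split again with 15 components. A sub-cluster took the best-scoring class with at least 3 markers over 2 times their median level among clusters. It stayed unnamed where genes of another class led it, where it was shallow without own markers among its top 10 genes, or where the median marker of an unrelated class, or the sustentacular gene Fezf2, passed 20% of its highest level in any cluster, which left 1291, 964 and 1374 cells unnamed. The scoring rules were chosen after looking at clusters. The members, gene lists and thresholds were chosen with earlier results of these data known. P10 sustentacular cells were mostly in cluster 2 and 3-month ones in cluster 33, and likewise 4 and 27 for basal cells, 0 and 34 for fibroblasts, 20 and 31 for gland cells, 14 and 25 for neutrophils, 24 and 10 for T or NK cells, 17 and 36 for B lineage cells, and 18 and 6 for osteoblasts. The largest cluster of the P10 control differed from that of both mutants for non-sensory epithelium (20 and 32) and monocytes (13 and 9). Doublets were not removed: Scrublet marked 0 barcodes at its own threshold, so an alternative left out the 538, 629 and 848 highest-scoring barcodes. Free RNA was not corrected for.

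CPM have exact Poisson 95% intervals, ratios the conditional exact binomial interval and shares the Clopper-Pearson interval. A count of 0 was taken to allow 3 counts. Genes needed at least 30 UMIs in every library for the class rule and 20 UMIs in both libraries together for the comparison of libraries. Shares after thinning to 2000 UMIs are expected values over the cells of that depth. Likeness was computed over genes with at least 200 UMIs. The pathway genes named are the targets and those past the rule in precursors or in a leading class, and the 3 genes most like each member were named. The scripts were tested on simulated data. Of 32285 gene identifiers, 32158 were found in GENCODE M21.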

Additional observations from a re-analysis of the deposited data

How the results depend on the processing

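No paired analysis was possible because every group holds a single library. For the same reason no library could be left out of a group, and no test was run. Over 14 alternatives, 12 of them planned, 183 values were compared. Of these, 144 stayed within the spread of the libraries or within 1.5 times the count, and 39 moved. Only the 80 log2 ratios could be labelled reversed, and 0 were. All 80 log2 ratios of a member in its leading class stayed above 0, but each is a median over the 3 libraries, so a single library could differ. The leading class had been chosen as the highest in these same cells, so ratios above 0 were nearly fixed in advance. Ranges were 1.60 to 2.36 for Notch1, 0.73 to 1.64 for Notch2, 5.07 to 5.74 for Notch3 and 3.69 to 3.86 for Dll1. The causes of the moves were not tested.

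At the 5% mitochondrial limit the log2 ratio was 3.88 for Dll3 (4.84 at 10%) and 3.13 for Jag1 (2.74). This Dll3 median hides that the P10 mutant precursors held 0 Dll3 UMIs at that limit. The thinned shares in the leading class were 26.3% for Notch1 (24.1%), 66.5% for Notch3 (79.0%), 7.72% for Dll1 (6.36%) and 35.2% for Jag1 (25.8%). The Notch3 and Jag1 values at 5% rest on only 5, 4 and 6 pericytes. Only 12 classes had enough cells, 9 of the 14 member and class pairs were shared, and the pairs past 2-fold between libraries fell to 1 of 34 at P10 and 5 of 41 between the mutants. With each library clustered alone 11 of the 14 pairs were shared over 17 classes, Notch4 was at 4.05, and the shares were 17.0% for Notch2 and 71.9% for Notch3. Dll3 had no value, since no precursor cluster was named in the 3-month library. The P10 precursors were not stable either: 59 of 172, 16 of 74 and 0 of 26 kept that name, and 78, 47 and 26 were unnamed. All 68 immature VSNs of the 3-month library were unnamed as well. With the mean of per-cell CPM Dll4 was at 5.73 (5.26) and 10 pairs passed at P10. With the Notch genes kept in clustering the Notch1 share was 26.7%. A 3-fold limit left 7 pairs of member and class and 3 and 8 pairs between libraries, and a minimum of 50 UMIs left 2 and 7. Thinning to 1000 UMIs gave shares of 12.0%, 6.93%, 56.3% and 4.37% for Notch1 to Notch4, 3.52% for Dll1, 0.854% for Dll3, 13.9% for Jag1 and 9.62% for Jag2. Without thinning they were 59.4%, 19.3%, 96.4% and 22.3%, then 23.9%, 15.4% and 38.5% for Dll1, Dll3 and Dll4, 72.7% for Jag1 and 60.7% for Jag2. The last alternatives, 2 in number, were chosen after seeing the data. Leaving unnamed cells out of the other cells gave 4.54 for Notch4, 6.14 for Dll4 and 3.12 for Jag2, and centring ratios on the median of all genes moved no count by over 1.5 times. Values of Dll3 rest on 100 UMIs in all kept cells, and those of 3-month precursors on 26 cells.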
